A study of Mus musculus with 6 samples.

Results

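Matrix metalloproteinase (MMP) genes and the genes of their tissue inhibitors (TIMP) were described in Met-1 TripZ-200c cells with and without induction of miR-200c. The members were every gene of the table whose symbol was Mmp followed by a number and at most 1 letter, or Timp followed by a number from 1 to 4. This gave 27 of the 43548 genes listed, 23 MMP and 4 TIMP genes, and the rule uses symbols alone, although it was set with earlier results of these data known. Met-1 is a mammary carcinoma line of the FVB/NJ mouse, taken from a late tumor of the MMTV-PyMT model, in which a viral promoter drives a tumor antigen in the mammary gland. The cells of all libraries were of the same clone, sorted for tight induction and an intermediate reporter level, and all carried the lentiviral TripZ vector, which makes the miR-200c precursor and a red fluorescent reporter when doxycycline (Dox) is given. The MinusDox group received vehicle and the PlusDox group 1 µg/mL Dox, both for 48 h, with 3 libraries each. The labels and the sequencing methods give 48 h, while a legend of the paper refers to samples treated for longer. Cells with the empty vector were not analysed here, so effects of Dox and of miR-200c cannot be told apart. The labels do not say whether the 3 libraries of a group came from separate experiments. A legend ties them to a set of repeated experiments without saying which library came from which, so p-values measure only the spread between these libraries, which may be technical.

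MMPs are zinc-dependent proteases that cut collagens, laminins, proteoglycans and many cell surface proteins. They are secreted or anchored in the membrane as inactive proenzymes, and plasmin, furin-like convertases or other MMPs remove the prodomain. TIMPs block the active site. In mammary tumors MMPs are made by carcinoma cells and by stromal cells, and they are known for their part in invasion and in the release of growth factors from the matrix.

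Expression was given as FPKM, a fragment count scaled for transcript length and for library size, so levels can be compared between genes of unequal length. Summed FPKM ranged from 800267 to 815139 and the number of genes above 0 from 16867 to 18012 across libraries. Depth is removed from FPKM. Steps in the lowest values gave relative depths of 0.916 to 1.49 times that of MinusDox 1. The induced system was checked with genes that the miR-200 family is known to control. Zeb1 fell by 0.98 and Zeb2 by 1.81 on the log2 scale, whereas Epcam rose by 4.20, with adjusted p-values of 3.62e-04, 4.48e-05 and 5.26e-04 in limma. Cdh1, which encodes E-cadherin, was between 0.0419 and 0.0776 FPKM without Dox and between 0.554 and 1.24 with Dox. The miR-200c gene itself, annotated at 69 bases, was listed at 0 in all 6 libraries, so its induction could not be read from these values. The paper reports from qRT-PCR, after a longer treatment, that Dox raised miR-200c strongly in this line.

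Mature miR-200c-3p is shown because its seed (bases 2 to 8, in capitals) defines the sites searched for in the members. The sequence is that of RefSeq on GRCm38.p6, from the minus strand at chr6:124718324-124718346.
mmu-miR-200c-3p: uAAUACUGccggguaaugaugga

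Of the 27 genes, 9 averaged 1 FPKM or more, and these were at or above 1 FPKM in every library as well. They were 6 MMP genes (Mmp3, Mmp10, Mmp16, Mmp19, Mmp11 and Mmp24) and 3 TIMP genes (Timp2, Timp3 and Timp1). Of these 9 genes, 6 fell with Dox and 0 rose at an adjusted p under 0.05, with Mmp24 and 2 TIMP genes not passing. Over all 12879 genes tested, 15.0% passed, 7.97% lower and 7.06% higher. Fewer cells of a type and less RNA per cell cannot be told apart in bulk RNA. The median log2 fold change was -0.48 for the 9 genes and 0.00 for all genes tested. No library decided the direction for any of them, but the count of all genes that passed, 1935, was between 1048 and 1359 when a library was left out, and it moved by over 1.5 times without MinusDox 2, PlusDox 1, PlusDox 2 or PlusDox 3.

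**Figure D1:**
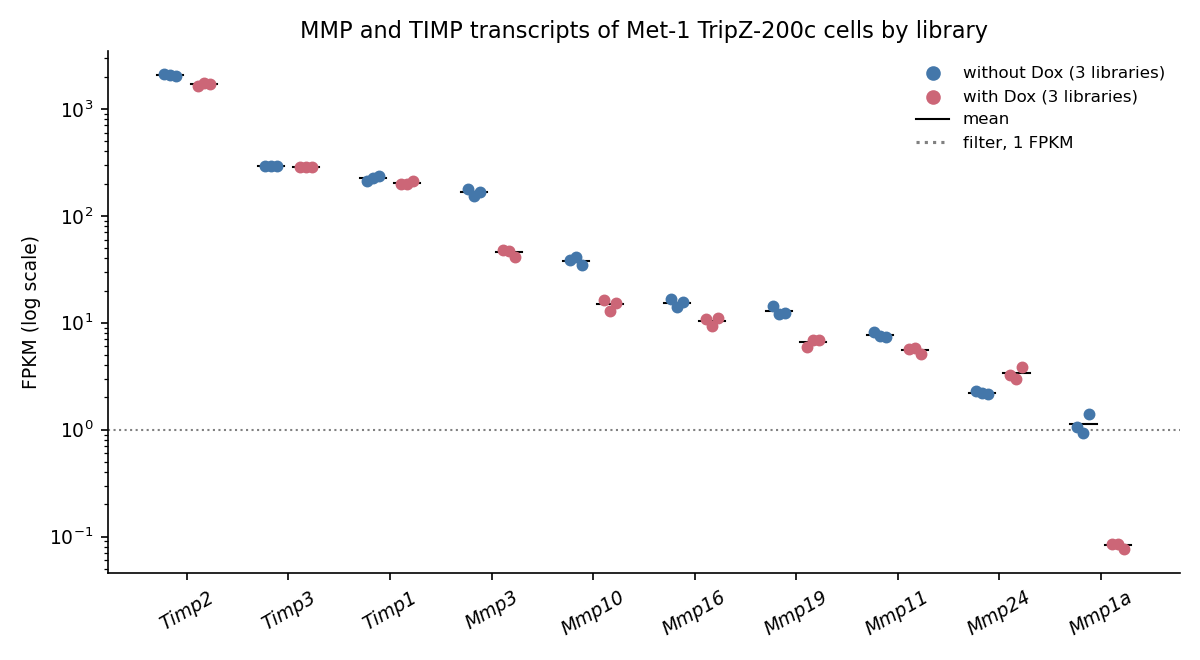
FPKM (log scale) of the 9 genes that averaged 1 FPKM or more and of Mmp1a, with a point for each library and a bar for the mean of each group of 3. The PlusDox points lie below all MinusDox points for Mmp3, Mmp10, Mmp16, Mmp19, Mmp11, Mmp1a, Timp2 and, narrowly, Timp3, and above them for Mmp24.

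The stromelysins Mmp3 and Mmp10 had the highest levels and the greatest decreases among the MMP genes of at least 1 FPKM. Mmp3 encodes stromelysin 1, which degrades proteoglycans, laminin and fibronectin, cleaves E-cadherin and activates other MMP proenzymes. Mmp3 was at 178, 153 and 169 FPKM in the MinusDox libraries and at 48.4, 47.3 and 40.8 FPKM in the PlusDox libraries. The groups were far apart, with every PlusDox library below every MinusDox library. The log2 fold change of Mmp3 on the log2(FPKM + 0.1) scale was -1.87 ± 0.0811 (SE), or 3.66-fold lower, with an adjusted p of 4.48e-05 in limma. It passed under all 16 alternatives, with an adjusted p of at most 0.0074.

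Mmp10, stromelysin 2, is close to Mmp3 in sequence and in substrates. Its FPKM was 38.9, 40.8 and 34.6 without Dox and 16.3, 12.9 and 15.2 with Dox. The groups did not overlap, and the log2 fold change was -1.36 ± 0.103 (SE), or 2.57-fold lower on the log2(FPKM + 0.1) scale (adjusted p = 3.64e-04, limma). A decrease of at least 2-fold that passed the test was found in 63 of the 12879 genes (0.489%), and in the order of log2 fold change over all genes Mmp3 was 34th and Mmp10 58th from the lowest. Of the 50-base windows of the longest transcript, 8.39% of those of Mmp3 were also found in Mmp10 or Gm15244 and 8.37% of those of Mmp10 in Mmp3, so reads from these stretches cannot be assigned to 1 gene.

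Mmp11, stromelysin 3, acts on serpins rather than on the main matrix proteins and is activated within the cell by furin. It was at 8.14, 7.58 and 7.43 FPKM in MinusDox and 5.63, 5.76 and 5.13 FPKM in PlusDox libraries. The groups did not overlap, but the decrease was smaller than those of the other stromelysins, with a log2 fold change of -0.48 ± 0.0972 (SE) and an adjusted p of 0.0183 in limma. The call was lost without MinusDox 1 (adjusted p = 0.0596), without MinusDox 2 (0.0538) and without PlusDox 3 (0.068), with log2 fold changes between -0.51 and -0.43 over all omissions.

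Mmp19 was first described as an autoantigen and degrades basement membrane proteins. Its FPKM was 14.4, 12.0 and 12.3 in the MinusDox libraries and 5.99, 6.83 and 6.83 in the PlusDox libraries. The PlusDox values were all below the MinusDox values, and the log2 fold change was -0.96 ± 0.104 (SE), or 1.95-fold lower (adjusted p = 0.00151, limma). Of its 50-base windows, 25.4% were shared with Tmem198b and a second annotated gene, and the authors' counting may have split reads there.

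Mmp16 and Mmp24 encode membrane-type MMPs, which are anchored in the plasma membrane and are activated by furin-like convertases. Mmp16 was at 16.5, 14.0 and 15.7 FPKM in MinusDox and 10.8, 9.23 and 11.1 FPKM in PlusDox libraries. These groups did not overlap, and Mmp16 fell by 0.57 ± 0.101 (SE) on the log2 scale (adjusted p = 0.0115, limma). Without variance moderation its adjusted p was 0.056 on log2(FPKM + 1) and 0.0544 on FPKM, over the threshold of 0.05. Mmp24 was the only gene of the 9 with a positive log2 fold change, and it did not pass. Its FPKM was 2.28, 2.23 and 2.17 without Dox and 3.25, 2.99 and 3.89 with Dox, with a log2 fold change of 0.57 ± 0.167 (SE) and an adjusted p of 0.0628. The groups did not overlap, and in limma without the trend Mmp24 passed (adjusted p = 0.024). Of the windows of Mmp24, 13.8% were shared with BC029722.

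**Figure D2:**
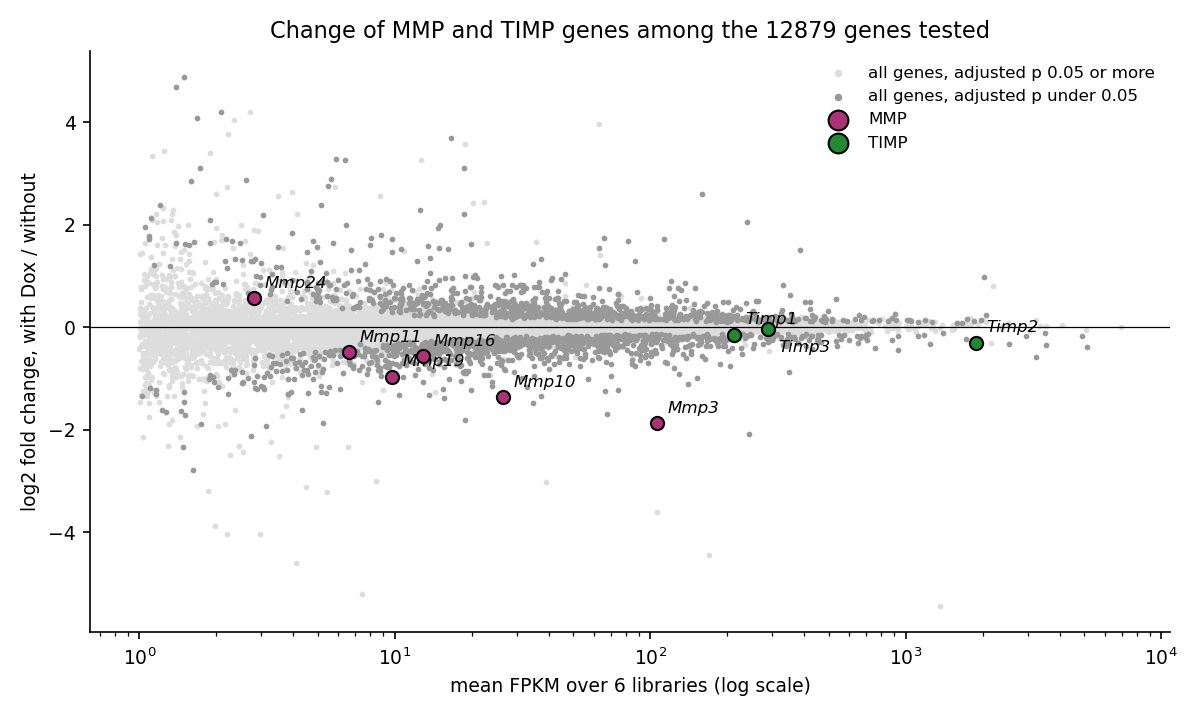
Log2 fold change (with Dox over without, log2(FPKM + 0.1) scale) against the mean FPKM over 6 libraries (log scale) for the 12879 genes tested, in dark grey where the adjusted p was under 0.05, with MMP genes in purple and TIMP genes in green. Mmp3 at -1.87 and Mmp10 at -1.36 stand below most genes of their level, and Timp2, at 1888 FPKM, lies at the far right with a log2 fold change of -0.30.

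TIMP transcripts were far more abundant than MMP transcripts, and their log2 fold changes were smaller in size than those of the 5 MMP genes that fell. Timp2, an inhibitor of most MMPs that also binds the Mmp14 protein on the cell surface, was the 27th most abundant of all genes by mean FPKM. It was at 2098, 2096 and 2051 FPKM in MinusDox and 1655, 1735 and 1695 FPKM in PlusDox libraries. The groups were well separated with little spread within each, and Timp2 fell by 0.30 ± 0.0246 (SE) on the log2 scale, a change of -18.6% (adjusted p = 5.46e-04, limma).

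Timp3 is held in the extracellular matrix and also inhibits ADAM proteases. It was at 291, 292 and 295 FPKM in MinusDox and 284, 286 and 289 FPKM in PlusDox libraries. The groups did not overlap, yet the log2 fold change was -0.03, with a 95% confidence interval from -0.09 to 0.03 and an adjusted p of 0.496 in limma. Of its 50-base windows, 36.3% were shared, on either strand, with other annotated genes, among them Syn3, in which Timp3 lies.

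Timp1, a secreted inhibitor, was at 210, 225 and 236 FPKM in MinusDox and 198, 198 and 212 FPKM in PlusDox libraries. Its groups overlapped, since PlusDox 3 was above MinusDox 1. The log2 fold change was -0.14, with a 95% confidence interval from -0.26 to -0.02, and the adjusted p of 0.118 did not pass. Of the 9 genes, 7 were lower in every PlusDox than in every MinusDox library and Mmp24 was higher in every one. Over all genes tested with 6 values, 17.6% were lower and 17.4% higher without overlap.

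Summed over the 23 genes, MMP transcripts were at 247 ± 14.6 FPKM (SD, n = 3) without Dox and at 89.0 ± 4.14 FPKM with Dox, 36.0% of the level without. The TIMP genes summed to 2598 ± 15.2 FPKM without Dox and 2184 ± 42.3 FPKM with Dox, 84.1% of the level without. These sums are a description and were not tested. In FPKM the TIMP sum was lower by 413 and the MMP sum by 158, and Timp2 made up 93.4% of the first difference and Mmp3 76.6% of the second. The ratio of the TIMP to the MMP sum was between 9.9 and 11.2 in the MinusDox libraries and between 22.8 and 25.7 in the PlusDox libraries.

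The make-up of the MMP sum shifted as well. Mmp3 supplied 67.4% ± 1.62 (SD, n = 3) of the MMP sum without Dox and 51.1% ± 3.09 with Dox. Mmp10 supplied 15.5% ± 1.77 and 16.7% ± 1.71, so that its share moved by less than the spread between libraries. The shares of Mmp16 (6.23% without and 11.7% with Dox) and Mmp11 (3.12% and 6.19%) were higher with Dox although their FPKM was lower. Without Mmp3 the MMP sum was 80.5 FPKM without Dox and 43.5 FPKM with Dox, and without Timp2 the TIMP sum was 516 and 489 FPKM.

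**Figure D3:**
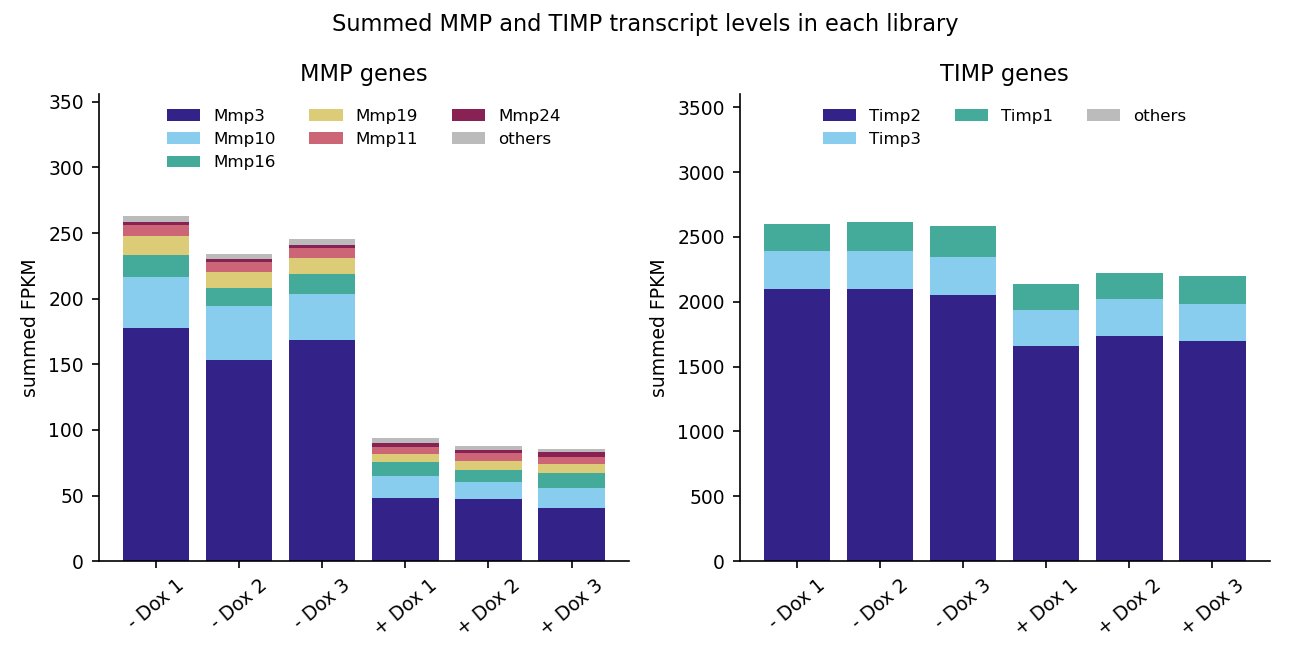
Summed FPKM of the MMP genes (left) and TIMP genes (right) in each library, with a colour for each gene of at least 1 FPKM and grey for the sum of the others; the vertical scales differ. The MMP bars reach 234 to 263 FPKM without Dox and 85.4 to 93.5 FPKM with Dox, and the TIMP bars 2582 to 2613 and 2137 to 2219 FPKM.

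A further 13 MMP genes were above 0 in at least 1 library with a mean under 1 FPKM, and 5 members (Mmp7, Mmp8, Mmp25, Mmp27 and Timp4) were listed at 0 in all 6. Each of the 13 was taken from the fit without the filter, in which 4.03% of 20513 genes passed as lower. Mmp1a, a collagenase of the mouse that corresponds to human MMP1, was the single one of the 13 to pass. It was at 1.06, 0.924 and 1.4 FPKM in MinusDox and 0.0861, 0.0858 and 0.0758 FPKM in PlusDox libraries. Its log2 fold change was -2.73 ± 0.285 (SE) on the log2(FPKM + 0.1) scale (adjusted p = 0.00434, limma), and it passed without each library in turn. Steps in its FPKM, read as the smallest whole numbers that fit within 5%, stood for about 89 reads over the MinusDox and 7 over the PlusDox libraries. Counts as high as those of the MinusDox libraries (25, 20 and 44) fit within this tolerance in any case. Scaled by relative depth, the 89 and 7 reads gave a ratio of 14.1 with a 95% interval from 6.57 to 36.1 (exact binomial, counting error only). The same reading gave Mmp13, which did not pass, a ratio of 1.81 with an interval from 1.10 to 3.04. Mmp13 stood at about 13, 2 and 12 reads in the PlusDox libraries, with the low value in PlusDox 2 alone. For Mmp2, which did not pass either, the ratio was 1.15 with an interval from 0.641 to 2.08. Such intervals leave out the spread between libraries. Of the windows of Mmp1a, 8.26% were shared with its paralog Mmp1b.

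The other collagenases were low. Mmp13 was at 0.469, 0.374 and 0.431 FPKM in MinusDox and 0.411, 0.042 and 0.334 FPKM in PlusDox libraries, so that the groups overlapped (adjusted p = 0.544, limma). Mmp1b was between 0 and 0.528 FPKM without Dox and between 0 and 0.226 FPKM with Dox.

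The gelatinases, which degrade collagen of basement membranes, were near the floor of the data. Mmp2 was at most 0.313 FPKM and Mmp9 at most 0.13 FPKM in any library. Mmp14, the membrane-type MMP known to activate the Mmp2 proenzyme together with Timp2, was at most 0.14 FPKM. Timp2 transcripts were abundant in the same libraries.

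Of the remaining low genes, Mmp23 (0.38 to 1.24 FPKM), Mmp15 (0.331 to 0.819) and Mmp17 (0.231 to 0.611) were above 0 in every library, as was Mmp28 (0.12 to 0.323). Mmp12, the macrophage elastase, was above 0 only in 2 PlusDox libraries, at 0.0631 and 0.137 FPKM. Mmp20 and Mmp21 did not exceed 0.0502 FPKM. None of these genes passed in the fit without the filter, and a 0 in this table need not mean that a gene was silent.

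Of the MMP genes, 10 lie in a cluster on chromosome 9, and Mmp3, Mmp1a and Mmp10, whose decreases were the greatest among the members that passed, are neighbours in it. On GRCm38 the 10 genes span 427 kb with 0 other protein-coding genes between them, in the order Mmp13, Mmp12, Mmp1b, Mmp3, Mmp1a, Mmp10, Mmp8, Mmp27, Mmp20 and Mmp7. Mmp3 lies at chr9:7445822-7455975, Mmp1a at chr9:7464141-7476869 and Mmp10 at chr9:7502352-7510240, all on the plus strand. The genes on either side of these 3 were Mmp8, listed at 0, and Mmp1b. Mmp1b averaged 0.313 FPKM without Dox and 0.0892 FPKM with Dox, with a library at 0 in each group, and did not pass (adjusted p = 0.595, limma).

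**Figure D4:**
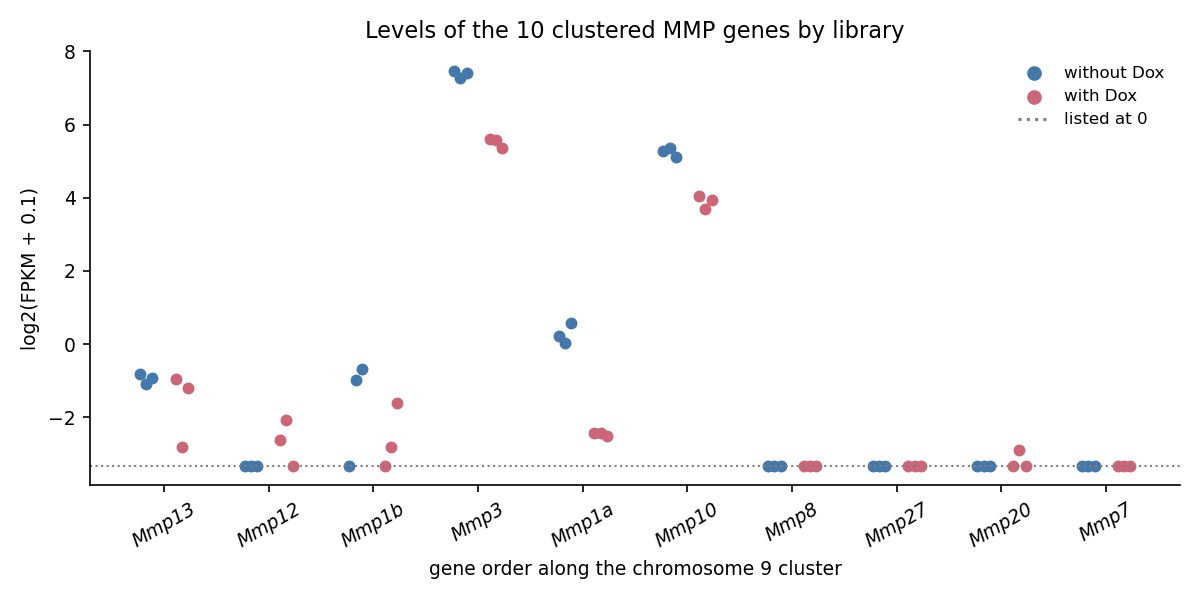
Log2(FPKM + 0.1) of the 10 MMP genes of the chromosome 9 cluster in their order along the chromosome, with a point for each library and a dotted line where a gene is listed at 0. Mmp3, Mmp1a and Mmp10 stand side by side with all PlusDox points below the MinusDox points, and the genes to their right are at or near the line.

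The promoters of these 3 genes and of Mmp13 are shown because stromelysin and collagenase promoters are known to hold AP-1 sites, which Fos and Jun proteins bind, close to a TATA box. The stretches are from RefSeq on GRCm38.p6, all on the plus strand, and cover 150 bases before and 50 bases from the annotated start. They are those of the reference strain and not of FVB/NJ. Capitals mark an AP-1 match (TGANTCA, which reads the same on both strands) and a TATA box match (TATAAA, searched on the strand of the gene alone). They stand at chr9:7445672-7445871 for Mmp3, chr9:7463991-7464190 for Mmp1a, chr9:7502192-7502391 for Mmp10 and chr9:7272364-7272563 for Mmp13.
Mmp3: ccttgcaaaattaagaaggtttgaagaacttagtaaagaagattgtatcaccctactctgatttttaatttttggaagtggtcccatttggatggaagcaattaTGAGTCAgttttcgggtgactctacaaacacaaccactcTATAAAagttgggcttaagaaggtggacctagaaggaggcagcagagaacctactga
Mmp1a: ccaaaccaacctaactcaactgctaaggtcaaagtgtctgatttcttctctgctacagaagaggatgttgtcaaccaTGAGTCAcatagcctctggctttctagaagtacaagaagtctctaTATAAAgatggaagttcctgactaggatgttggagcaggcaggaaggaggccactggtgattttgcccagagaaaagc
Mmp10: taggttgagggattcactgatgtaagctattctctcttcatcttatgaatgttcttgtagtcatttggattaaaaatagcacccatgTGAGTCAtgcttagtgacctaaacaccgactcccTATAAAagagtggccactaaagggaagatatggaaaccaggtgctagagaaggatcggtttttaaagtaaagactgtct
Mmp13: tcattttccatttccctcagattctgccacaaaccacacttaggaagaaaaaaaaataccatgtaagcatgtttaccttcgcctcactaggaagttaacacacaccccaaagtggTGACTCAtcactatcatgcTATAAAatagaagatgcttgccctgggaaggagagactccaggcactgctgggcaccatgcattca

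The AP-1 match begins 46 bases before the annotated start in Mmp3, 73 in Mmp1a, 63 in Mmp10 and 35 in Mmp13. In Mmp3, Mmp1a and Mmp10 it has the same 7 letters, TGAGTCA, and in Mmp13 it reads TGACTCA. A RefSeq promoter was found for 22 of the 27 members. None was found for Mmp2, Mmp9, Mmp16, Mmp17 and Mmp19, so Mmp16 and Mmp19, which fell, were not searched. In the 300 bases from 250 before the start to 50 after it, 8 of the 10 genes of the cluster and 0 of the 12 others had an AP-1 match. The same 8 had a TATA box match, as did Mmp21 outside the cluster. A gene was counted if any of its promoters matched, and Mmp12 and Mmp7 each have a further promoter with neither match. The shares that follow are per promoter. Of all 32851 promoters of this length, 7.81% had an AP-1 match, 8.32% a TATA box match and 0.995% both. The 8 genes include Mmp7, listed at 0, and Mmp20 and Mmp12, at most 0.137 FPKM, so the matches were not limited to the genes that fell. An ETS match (AGGAAG on either strand), counted for the same promoters, was present in 35.4% of all promoters and at 1 place in Mmp3, 1 in Mmp1a, 2 in Mmp13 and 0 in Mmp10.

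Matches to the miR-200c seed were searched for in the longest annotated 3′ UTR of each gene. The site for seed bases 2 to 8, CAGTATT, was present in 4 of the 27 members, Mmp12, Mmp15, Mmp16 and Mmp28. Of the 9 genes of at least 1 FPKM it was present in Mmp16 alone (11.1%), beside 16.1% of 10798 genes of at least 1 FPKM with an annotated 3′ UTR. Mmp3, Mmp10, Mmp19, Mmp11 and Timp2, which fell, and Mmp1a had 0 such sites. Among the 21 other genes of MMP control of at least 1 FPKM described below, the 2 with a site were Reck and Sh3pxd2a. This count of 2 in 21 stands beside the same 16.1%, and both genes fell. Of the listed genes under 1 FPKM, Pcsk5, Tfpi2, Thbs2 and Wipf1 had a site as well. The 30 bases around these sites are shown with the site in capitals, at chr4:18117795-18117824 on the plus strand for Mmp16, chr4:43943475-43943504 on the plus strand for Reck and chr19:47265258-47265287 on the minus strand for Sh3pxd2a (GRCm38).
Mmp16: tgtcctaacagCAGTATTgtcattctcatg
Reck: ttagcaccacaCAGTATTtttttcacctgc
Sh3pxd2a: cttctgctggaCAGTATTaaatagagtggg

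Genes outside the family that activate, inhibit, clear, induce or bind MMPs were taken from 5 lists of 37 genes, 21 of which had at least 1 FPKM. Of these 21 genes 11 passed, 6 lower and 5 higher with Dox, beside 7.97% lower and 7.06% higher over all genes tested. The lists were chosen with earlier results of these data known. The 2 tested genes for other inhibitors and clearance receptors both fell. Reck, a membrane-anchored inhibitor of several MMPs, was at 13.1, 11.8 and 12.9 FPKM in MinusDox and 6.93, 8.08 and 8.03 FPKM in PlusDox libraries. The groups did not overlap, and the log2 fold change was -0.71 ± 0.0935 (SE, adjusted p = 0.00363, limma).

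Lrp1, an endocytic receptor that clears MMPs and TIMPs from the cell surface, was at 174, 167 and 166 FPKM in MinusDox and 82.9, 97.9 and 88.7 FPKM in PlusDox libraries. The groups did not overlap, and Lrp1 fell by 0.91 ± 0.0622 (SE) on the log2 scale (adjusted p = 2.33e-04, limma). Reck and Lrp1 were the 2 tested genes of the 9 in this list, and A2m, Tfpi2, Spock1 and Spock3 were listed at 0 in every library.

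Of 9 genes of plasminogen activation, 5 were tested, 2 fell and 1 rose, with a median log2 fold change of -0.03. Serpine2, which encodes an inhibitor of thrombin, urokinase and plasmin, fell from 233 ± 5.98 to 169 ± 6.96 FPKM (SD, n = 3), a log2 fold change of -0.46 (adjusted p = 6.57e-04, limma). S100a10, the annexin A2 partner that serves as a plasminogen receptor, fell by 0.16 on the log2 scale (adjusted p = 0.0119), a call lost in limma without the trend (adjusted p = 0.0736). Plaur, the urokinase receptor, rose by 0.16 (adjusted p = 0.039), a call that was lost without MinusDox 2 (adjusted p = 0.109), MinusDox 3 (0.104), PlusDox 1 (0.0724), PlusDox 2 (0.104) or PlusDox 3 (0.123). Plau, the urokinase itself, was at 1.95 ± 0.336 FPKM without and 1.99 ± 0.0817 FPKM with Dox, and neither it nor Anxa2 passed (log2 fold changes 0.04 and -0.03).

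The proprotein convertases Furin and Pcsk7, which activate membrane-type MMPs and Mmp11, did not pass. Furin was at 84.1 ± 2.05 FPKM without Dox and 85.4 ± 4.36 FPKM with Dox, with a 95% confidence interval of the log2 fold change from -0.09 to 0.13. For Pcsk7 the interval was from -0.07 to 0.21.

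Among 8 inducers and binding partners, 6 were tested, 3 rose and 1 fell, with a median log2 fold change of 0.28. Thbs1, thrombospondin 1, which binds MMPs and activates latent TGF-beta, was at 239, 237 and 242 FPKM in MinusDox and 424, 425 and 420 FPKM in PlusDox libraries. The separation was wide and the libraries of a group were close, and Thbs1 rose by 0.82 ± 0.0251 (SE) on the log2 scale (adjusted p = 8.78e-06, limma). Cav1, the caveolae protein, rose by 0.76 (adjusted p = 0.0012), and Lcn2, which binds and stabilises Mmp9 protein, rose by 0.52 (adjusted p = 8.07e-04). Cd44, a hyaluronan receptor that docks Mmp9, fell by 0.15 (adjusted p = 0.0208), a call lost in limma without the trend (adjusted p = 0.0783) and without MinusDox 1 (adjusted p = 0.0587), MinusDox 2 (0.0709), PlusDox 1 (0.058) or PlusDox 3 (0.0588). Bsg, the MMP inducer basigin, and Cd151 did not pass (log2 fold changes 0.03 and -0.13). Itgb3, below the filter at 1.29 ± 0.04 FPKM without and 0.435 ± 0.0779 FPKM with Dox, had an adjusted p of 0.0314 in the fit without the filter and of 0.0512 to 0.0816 when any library was left out.

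Of the 7 genes of invadopodia, the protrusions at which cells concentrate MMPs, 6 were tested, 1 rose and 1 fell, with a median log2 fold change of 0.03. Src, the kinase that starts these structures, was at 81.3, 91.8 and 79.9 FPKM in MinusDox and 152, 160 and 158 FPKM in PlusDox libraries. All PlusDox libraries lay above all MinusDox libraries, and Src rose by 0.90 ± 0.0581 (SE) on the log2 scale (adjusted p = 2.01e-04, limma). Sh3pxd2a, the scaffold Tks5, fell by 0.35 ± 0.0467 (adjusted p = 0.00367). Its relative Sh3pxd2b, Cttn and Wasl did not pass (log2 fold changes -0.02, 0.08 and -0.14).

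**Figure D5:**
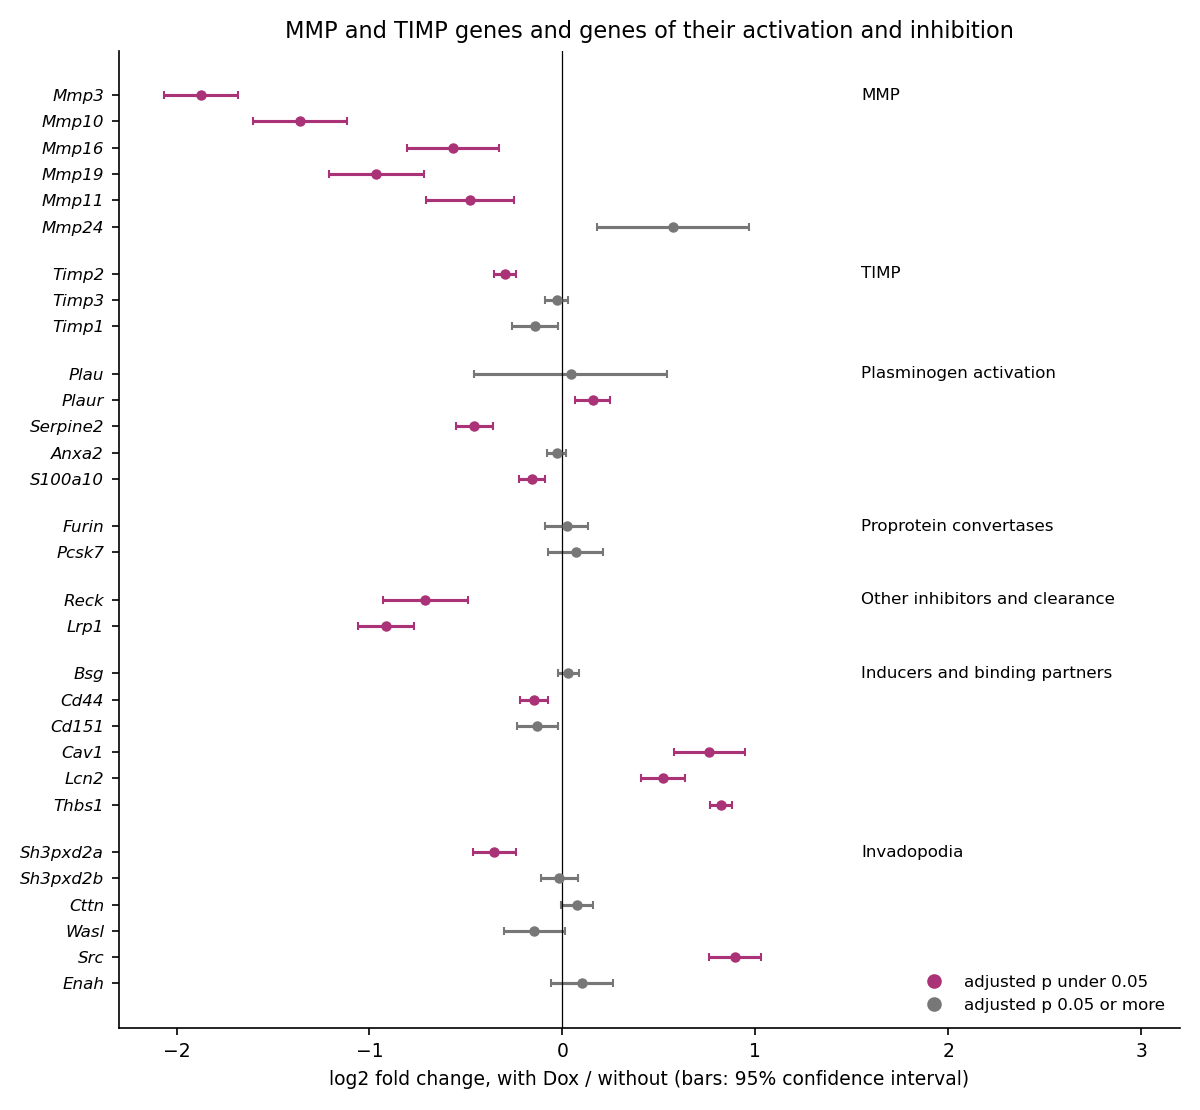
Log2 fold change (with Dox over without, log2(FPKM + 0.1) scale) with its 95% confidence interval for the 9 MMP and TIMP genes and the 21 genes of the 5 lists with at least 1 FPKM, in purple where the adjusted p was under 0.05. Mmp3 at -1.87 is the lowest and Src at 0.90 the highest of these genes.

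MMPs are also made by fibroblasts and leukocytes, and markers of other cells were read in the same libraries. The leukocyte markers Ptprc, Csf1r and Itgam were at most 0.222 FPKM and Emr1 was at 0. Of 8 markers listed, the 7 present summed to between 28.5 and 37.0 FPKM without Dox and between 33.8 and 40.2 FPKM with Dox, mostly from Cd14, Cd68 and Lyz2. Cd14 rose by 0.44 on the log2 scale (adjusted p = 0.0171, limma). Its call was lost without MinusDox 2, MinusDox 3, PlusDox 2 or PlusDox 3 (adjusted p up to 0.0665). Cd68 and Lyz2 did not pass (log2 fold changes -0.35 and -0.56). The 5 fibroblast and pericyte markers summed to between 50.4 and 52.7 FPKM without Dox and between 29.9 and 32.3 FPKM with Dox. This sum and Mmp3 were both lower with Dox, which every gene that falls between these groups shares. Nearly all of the sum came from Pdgfra and Pdgfrb, the members of at least 1 FPKM. Their log2 fold changes were -0.27 and -1.06 (adjusted p = 0.041 and 9.78e-05, limma). Dcn was at most 0.896 FPKM and Rgs5 at most 0.0176 FPKM in any library, and Lum was at 0 in all libraries. The call of Pdgfra was lost when any library was left out (adjusted p up to 0.119), and Pdgfrb passed under all 16 alternatives. The neutrophil markers summed to between 8.56 and 11.0 FPKM without Dox and between 5.19 and 8.55 FPKM with Dox, nearly all from S100a8, with S100a9 and Mpo at 0. The endothelial markers summed to at most 5.12 FPKM and those of bone and cartilage to at most 0.0777 FPKM in any library. The part of other cells in the MMP values was not tested. Of the markers of mesenchymal-like carcinoma cells, 5 of 6 were at least 1 FPKM, whereas Krt8 stayed under 1 FPKM. Krt18, a keratin of simple epithelia, was between 91.2 and 96.4 FPKM without Dox and between 364 and 400.0 FPKM with Dox, a log2 fold change of 2.05 (adjusted p = 3.61e-06, limma). Vim was between 3840 and 4055 FPKM without Dox and between 3027 and 3198 FPKM with Dox and fell by 0.35 on the log2 scale (adjusted p = 5.66e-04), a call lost with quantile normalization (0.0514). Krt18, Vim, Zeb1 and Zeb2 differed between the same groups as the MMP genes, as does any gene that changes with Dox. Their part in the MMP values was not tested. Fn1, with missing values in MinusDox 3 and PlusDox 3, did not pass (log2 fold change 0.06, adjusted p = 0.371, limma). Krt8 did not pass in the fit without the filter (log2 fold change 1.23, adjusted p = 0.0972).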

How the data were processed

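Single reads of 50 bases were made from the mRNA of the 6 Met-1 TripZ-200c libraries. The authors mapped the reads with gSNAP to the mouse genome (GRCm38.p6 in the submitters' processing notes, with an FVB/NJ assembly also named in the study's methods) and deposited FPKM values from Cufflinks for each gene and library, and their means per group. The deposited fold, p and q columns hold the authors' own comparison and were not used.

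The table had 43611 rows and 43548 identifiers. Where an identifier recurred, rows other than that of the highest mean were dropped (63 rows). A placeholder, 999999999, was set to missing (6 values of 4 genes). Of the columns of single libraries, 0 were left unused. The 12879 genes that averaged 1 FPKM or more were tested on log2(FPKM + 0.1) in limma 3.58.1 under R 4.3.3 (lmFit and trended eBayes, group as the only term, two-sided), with Benjamini-Hochberg adjustment over all genes tested and a threshold of 0.05. A change on this scale understates that of genes of low level. Genes below the filter were read from the same fit over all 20513 genes above 0. With 3 libraries against 3 a permutation test cannot give a p below 0.1 and was not used. The fit was tested on simulated data.

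Groups and replicate numbers came from the labels. The members and lists were chosen with earlier results of these data known. A listed gene outside the family is not reported here and was left out of the list counts. Every member is named, as is every listed gene that passed, up to 3 per list that did not, and the check genes. Gene positions, 3′ UTRs and shared 50-base windows were taken from GENCODE on GRCm38, and miRNA and promoter sequences from RefSeq on GRCm38.p6. Windows were matched on both strands, so an overlap on the opposite strand counted as shared. The paper names a stranded library kit and does not say whether strand was used in counting. Protein sequences were not used here. Depth is unknown from FPKM. Relative depth was the most frequent ratio of low FPKM values between libraries, held by 11.9% to 13.9% of the genes compared. Alternatives were pseudocounts of 1 and 0.01, no filter, a minimum mean of 5 FPKM, quantile normalization, median scaling, limma without the trend, linear models without moderation on log2(FPKM + 1) and on FPKM, a replicate block, an adjusted p of 0.01 and omission of each library. The adjusted p of 0.01 re-reads the main fit and is not among the 16 alternatives counted for Mmp3 and Pdgfrb. Annotation and plots were made with matplotlib 3.10.9, pandas 2.3.3 and numpy 2.4.6 under Python 3.11.15.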

Additional observations from a re-analysis of the deposited data

How the results depend on the processing

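The 9 genes of at least 1 FPKM and Mmp1a kept their direction under every alternative run. Of 157 values 6 lost and 1 gained the call, all in Mmp16, Mmp11 and Mmp24. These values leave out the adjusted p threshold of 0.01. At that threshold Mmp16 (adjusted p = 0.0115, limma) and Mmp11 (0.0183) did not pass either. The count of members that passed, 6, was 5 to 6 without 1 library and 4 at an adjusted p of 0.01. The count of list genes, 11, was 9 to 10 without 1 library. The count of all genes, 1935, was 1048 to 1359 without 1 library, 1289 with the model on FPKM without moderation and 770 at an adjusted p of 0.01. Leaving out Mmp3 raised the MMP sum with Dox from 36.0% to 54.0% of that without, and leaving out Timp2 raised the TIMP sum from 84.1% to 94.8%. Leaving out 1 library gave 35.0% to 37.2% and 83.4% to 85.0%. With the other seed match tried (bases 2 to 7 followed by A, which is not a subset of the first), 2 members had a site. These were Mmp12 and Mmp28, so 0 members of at least 1 FPKM had it, beside 11.1% of all genes of that level. Of the tested list genes, Cd44, Sh3pxd2a and Wasl had this site and Reck did not. Among the members of at least 1 FPKM, Mmp1a, the tested list genes named and the check genes, directions turned for 3 genes that did not pass. When 1 library was left out, the log2 fold change of Plau was -0.0984 (without MinusDox 2) to 0.134, that of Furin -0.0203 (without PlusDox 2) to 0.0427 and that of Sh3pxd2b -0.0275 to 0.00519 (without PlusDox 2). The cause was not tested.

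The replicate numbers are shared by the groups but did not pair the libraries: the correlations of same-numbered deviations were 0.0287, 0.0359 and -0.00759, and the third library of each group did not correlate best with its own number. With the replicate block, 5 members, 9 list genes and 1337 of all genes passed. Mmp11 (adjusted p = 0.0511), Plaur (0.0968), Cd44 (0.0599), Itgb3 (0.117), Cdh1 (0.0721) and the markers Pdgfra (0.0828) and Cd14 (0.0543) lost the call, and no other call given in the text changed. Reads behind genes under 1 FPKM were few, which limits what could be detected there, and 6 of them (Mmp23, Mmp17, Mmp28, Mmp2, Mmp14 and Mmp9), none of which passed, changed sign with the library left out.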
